A study of Homo sapiens with 6 samples.

Results

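The transcripts described are 10 abundant long noncoding RNAs (lncRNAs) of HCT116 cells, namely MALAT1, NEAT1, GAS5, SNHG1, SNHG5, SNHG6, SNHG8, DANCR, ZFAS1 and CCAT1. They were chosen by gene symbol, as the rows with these names among the 56638 symbols of the count tables, and each of the 10 was found and passed the filter on low counts. HCT116 is a human colorectal carcinoma cell line. RNA-seq was performed on 3 samples of wild type (WT) cells and 3 samples of cells in which METTL3 had been knocked out with CRISPR-Cas9 (METTL3-KO), all grown in the same medium and labelled with the same passage range. The study describes the knockout as a monoclonal line made with a lentiviral vector, so the loss of METTL3 and the features of 1 clone cannot be told apart. The deposited tables name the groups NC and SiM3 and number the WT samples otherwise than the labels, which were followed here. What these names stand for is not given in the sources used here. Were they to mean cells treated with siRNA, the METTL3-KO values would be those of a knockdown and the limit to 1 clone would not apply, and this was not tested. Nothing states that the 3 samples of a group came from separate cultures, so the p-values measure the spread between these samples, which may be technical.

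METTL3 is the catalytic subunit of the complex that writes N6-methyladenosine (m6A) on nascent RNA, and both mRNAs and lncRNAs carry the mark, MALAT1 among the best studied of them. MALAT1 and NEAT1 are long, mostly unspliced nuclear RNAs transcribed from neighbouring genes. MALAT1 gathers in nuclear speckles, and NEAT1 is the scaffold of paraspeckles. A snoRNA host gene is spliced like an mRNA, and small nucleolar RNAs (snoRNAs), which guide chemical modification of ribosomal RNA, are cut from its introns. The exons of a host that remain are exported, and several hosts begin with the terminal oligopyrimidine (TOP) motif of the translation machinery's mRNAs and are removed by nonsense-mediated decay. CCAT1 is a colon cancer associated lncRNA from the region upstream of MYC.

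The start sites of snoRNA hosts are shown because the TOP motif, a C at the first base followed by an unbroken run of C or T, is the sequence feature for which this group is known. Each line gives the first 30 bases from the annotated start, written 5′ to 3′ on the strand of the gene, with the unbroken run of C or T from the first base in capitals. The 5 sequences of SNHG5, ZFAS1, SNHG1, SNHG8 and DANCR are the RefSeq starts on GRCh38.p14, and that of GAS5 is the start of the canonical GENCODE transcript on GRCh37.
SNHG5 (chr6:85678704-85678733, minus strand): CTTTTacgtcggccttcgcgagcgtctggg
ZFAS1 (chr20:49278642-49278671, plus strand): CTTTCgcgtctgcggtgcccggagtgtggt
GAS5 (chr1:173837098-173837127, minus strand): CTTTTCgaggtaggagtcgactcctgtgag
SNHG1 (chr11:62855856-62855885, minus strand): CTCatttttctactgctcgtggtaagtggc
SNHG8 (chr4:118278762-118278791, plus strand): Cacattcgggaagcgtcgggattaggtgaa
DANCR (chr4:52712394-52712423, plus strand): gcccttgcccagagtcttcccgggattggc
SNHG5 and ZFAS1 began with a C and at least 4 further pyrimidines, as did 4.07% of 35116 RefSeq starts (1429 starts). GAS5 did so from the GENCODE start only, since its RefSeq entry begins elsewhere with an A. A GENCODE start was read for GAS5 alone, and the share of 4.07% does not cover it. No start is shown for SNHG6. SNHG1 carried a shorter run, and the starts of SNHG8 and DANCR held no run of that kind. A match of these letters is a description of an annotated start and not of a mapped cap site.

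The tables held 20936091 to 30142144 read pairs counted on genes per sample. METTL3 itself was measured at 30.6, 30.2 and 29.2 CPM (counts scaled to the library total) in the WT samples and at 7.26, 7.69 and 6.89 CPM in the METTL3-KO samples, which is 24.3% of WT (log2 fold change -2.04, edgeR quasi-likelihood test, Benjamini-Hochberg adjusted p = 1.59e-07). Of 8 colorectal epithelial markers, 5 were higher in METTL3-KO (KRT8, KRT19, CDH1, CDH17 and VIL1) and none was lower, and EPCAM stood at 514.4 CPM in WT and 519.2 CPM in METTL3-KO on average. When replicate 3 of both groups was left out the same 5 were higher, and EPCAM (log2 fold change -0.10) and CLDN7 (-0.13) were lower. Of genes with a mean of at least 3 on the log2 CPM scale, 20.2% were called higher and 20.7% lower in all 6 samples. Without replicate 3 of both groups these shares were 32.1% and 35.4%. Of 8 markers of other cell types only 3 had enough counts to be tested, none of them was called, and COL3A1, PECAM1 and ALB were at 0. COL1A1, one of the 3, was measured at 5.42 CPM in WT and 6.99 CPM in METTL3-KO on average, so these markers were not all absent. Replicate 3 of each group stood apart. On log2 CPM, WT replicate 3 gained 0.11 for each doubling of transcript length where the other WT samples lost 0.06, and METTL3-KO replicate 3 lost 0.07 where the other METTL3-KO samples gained 0.03 to 0.04. Read pairs outside annotated genes made up 10.5% in WT replicate 3 and 6.97% in METTL3-KO replicate 3, against 7.99 to 8.20% in the other 4 samples. Counts of genes called and the values of the 10 RNAs are therefore also given without replicate 3 of both groups where they change. Those for the 10 RNAs are given after a correction for transcript length and GC content as well. Fold changes of other genes are those of all 6 samples unless stated otherwise.

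All 10 lncRNAs were measured at a lower mean level in METTL3-KO cells, and 5 of them passed the test, NEAT1, MALAT1, CCAT1, SNHG1 and SNHG6 (edgeR quasi-likelihood test, adjusted p under 0.05 over 22452 tested genes). None was called higher. In the same fit 13.2% of tested genes were called lower, 13.3% higher and 26.5% in either direction. Among genes with a mean of at least 3 on the log2 CPM scale, 20.7% were called lower and 20.2% higher. Among the 137 lncRNAs of that level 19.7% were lower and 15.3% higher. This level is a floor that all 10 RNAs exceeded, and the genes were not matched to them in expression. The same 5 RNAs were those whose groups did not overlap, where 40.9% of all tested genes had groups that did not. The median log2 fold change of the 10 RNAs was -0.35, against -0.02 for all tested genes. Together the 10 RNAs took 0.146, 0.153 and 0.154% of the counts on genes in WT, against 0.0973, 0.101 and 0.0987% in METTL3-KO. In bulk RNA, fewer cells that express a transcript and less of it in each cell cannot be told apart.

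**Figure D1:**
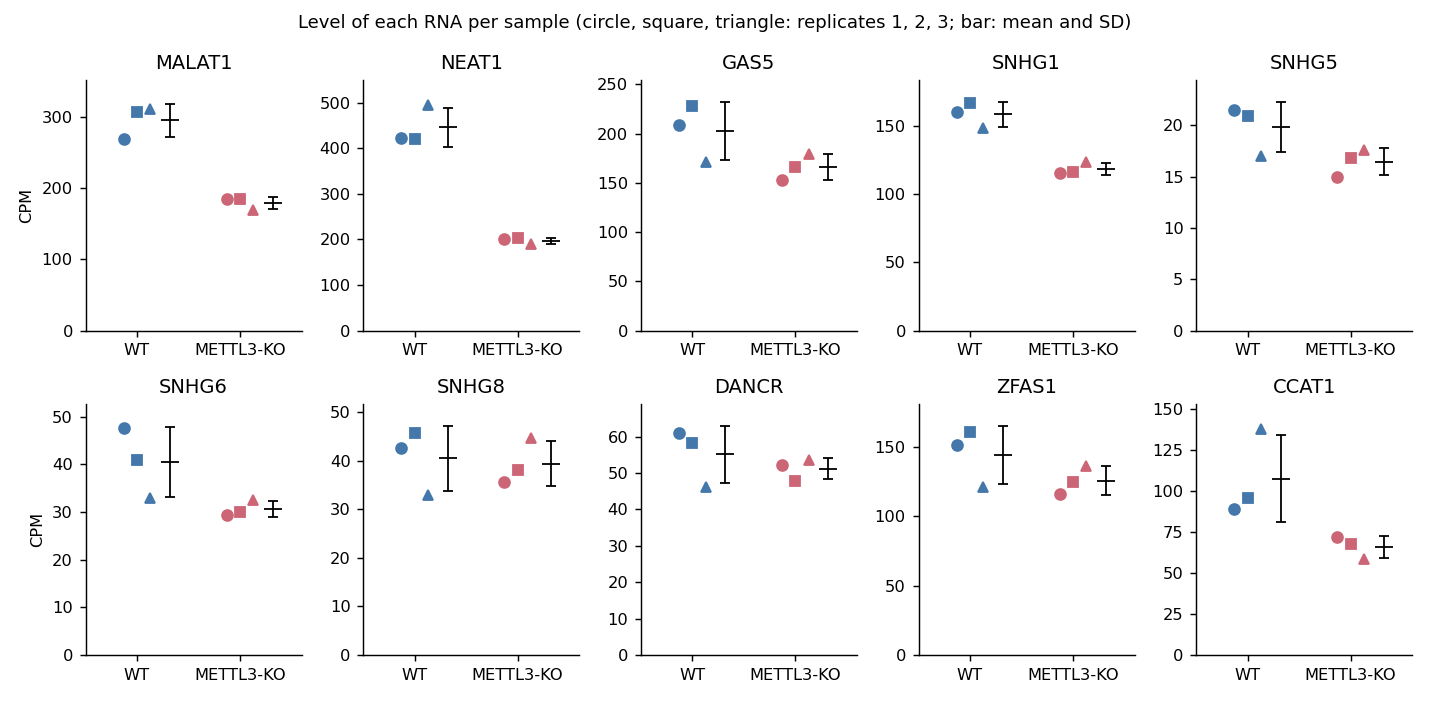
Level of each of the 10 lncRNAs in CPM (vertical axis, from 0, a scale of its own in each panel) in the 3 WT samples (blue) and the 3 METTL3-KO samples (red), with circles, squares and triangles for replicates 1, 2 and 3 and a black bar for the mean and SD. NEAT1 and MALAT1 showed the widest gaps, from 445.6 to 197.1 CPM and from 294.9 to 178.9 CPM on average. In GAS5, SNHG5, ZFAS1, SNHG8 and DANCR the groups overlapped.

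NEAT1 fell the furthest, to 44.2% of its WT level. It was measured at 421.6, 420.9 and 494.3 CPM in the WT samples and at 200.1, 202.0 and 189.1 CPM in the METTL3-KO samples. The groups were far apart, and the samples of METTL3-KO lay closer together than those of WT. The log2 fold change was -1.18 (SE 0.08, 95% interval -1.3527 to -1.0015, edgeR adjusted p = 2.04e-06, n = 3 per group). NEAT1 lies at chr11:65190245-65213011 on the plus strand of GRCh37 and is annotated with a longest transcript of 22743 nt without introns. A short polyadenylated and a long isoform share its start, and paraspeckles need the long isoform, but a count per gene does not separate them.

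MALAT1 fell to 60.7% of WT. Its levels were 268.2, 306.2 and 310.4 CPM in the WT samples and 184.2, 183.8 and 168.8 CPM in the METTL3-KO samples, again without overlap. The log2 fold change was -0.72 (SE 0.08, 95% interval -0.89 to -0.55, edgeR adjusted p = 4.96e-05). These values rested on 6621 to 7365 read pairs per WT sample and 3970 to 5553 per METTL3-KO sample. MALAT1 lies at chr11:65265111-65275544 on the plus strand of GRCh37, and its canonical transcript is 1 exon of 10434 nt. Its 3′ end is made by RNase P and protected by a triple helix in place of a poly(A) tail, whereas the library kit's standard protocol selects polyadenylated RNA, so the values are those of the MALAT1 captured by it.

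The measured fall was larger in NEAT1 than in MALAT1. NEAT1 gave 1.57, 1.37 and 1.59 counts for each MALAT1 count in WT, against 1.09, 1.10 and 1.12 in METTL3-KO, a log2 difference of -0.45. The groups did not overlap in this ratio, with p = 0.1 in a two-sided exact permutation test, which is the smallest value that 3 against 3 samples allow. Because both RNAs were counted in the same sample, the ratio does not depend on the scaling between samples.

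Of 13 paraspeckle proteins tested, 5 were lower, 1 was higher and 7 did not pass. The lower ones included NUDT21 (log2 fold change -0.57) and CPSF6 (-0.42), subunits of the cleavage factor that bears on which NEAT1 isoform is made, with edgeR adjusted p-values of 7.67e-04 and 0.00235 in that order. PSPC1 and RBM14, also of paraspeckles, were lower at -0.38 and -0.30, and EWSR1 was the one that was higher, at 0.25, a call that was lost without METTL3-KO replicate 1 and in the fit with a replicate block. SFPQ and NONO, the core proteins that bind NEAT1, did not pass, at -0.14 and -0.07. The median of the list was -0.18. Among 12 genes of RNase P, RNase Z and the binding of the MALAT1 triple helix, 3 were lower and none was higher, with a median of -0.12. The protein subunits RPP40 and RPP30 of RNase P were lower at -0.69 and -0.31 and RPP21, with few counts, at -0.78, while METTL16, which binds the triple helix, was measured at -0.13 without passing. The number lower in this list was 1 when WT replicate 1 or 2 or METTL3-KO replicate 1 or 2 was left out, 5 without WT replicate 3 and 7 without replicate 3 of both groups, when POP1 was higher and 9 paraspeckle proteins were lower. These counts stand beside the 20.7% of genes of at least 3 in mean log2 CPM that were called lower in all 6 samples, and the 35.4% without replicate 3.

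The 7 snoRNA hosts had smaller fold changes than the nuclear pair. SNHG1 and SNHG6 were called lower, and GAS5, SNHG5, ZFAS1, DANCR and SNHG8 did not pass the test, with overlapping groups in all 5. The median log2 fold change of the 7 was -0.28. Their share against MALAT1 and NEAT1 shifted accordingly. The hosts together gave 1.00, 0.992 and 0.708 counts per count of MALAT1 and NEAT1 in WT, against 1.34, 1.40 and 1.64 in METTL3-KO, without overlap (log2 difference 0.71, p = 0.1 in a two-sided exact permutation test, the smallest possible). Replicate 3 was the lowest WT sample (0.708) and the highest METTL3-KO sample (1.64), so the difference is smaller in the other samples.

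**Figure D2:**
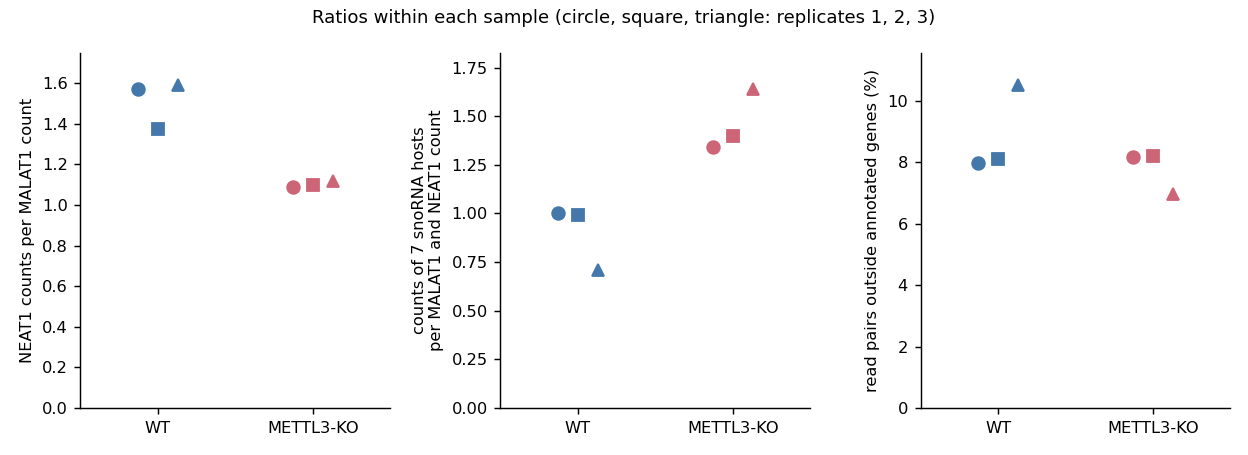
Ratios of counts within each sample (vertical axes, from 0) for WT (blue) and METTL3-KO (red), with circles, squares and triangles for replicates 1, 2 and 3: NEAT1 per MALAT1 count (left), the 7 snoRNA hosts per count of MALAT1 and NEAT1 (middle) and the percentage of read pairs outside annotated genes (right). The first ratio was lower in each METTL3-KO sample (1.09 to 1.12 against 1.37 to 1.59) and the second was higher (1.34 to 1.64 against 0.708 to 1.00), while replicate 3 of the groups departed in opposite directions in the right panel.

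SNHG1, whose introns carry several box C/D snoRNAs, was the host with the smallest adjusted p. It was measured at 160.3, 166.9 and 148.8 CPM in the WT samples and at 115.9, 116.5 and 123.7 CPM in the METTL3-KO samples. The groups did not overlap, and METTL3-KO stood at 74.8% of WT (log2 fold change -0.42, SE 0.07, 95% interval -0.58 to -0.26, edgeR adjusted p = 0.00120). SNHG1 lies at chr11:62619450-62623425 on the minus strand of GRCh37, with 11 exons in its canonical transcript.

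SNHG6 was measured at 47.6, 41.0 and 32.96 CPM in the WT samples and at 29.3, 29.98 and 32.5 CPM in the METTL3-KO samples. The groups did not overlap, although WT replicate 3 was above METTL3-KO replicate 3 by less than 1 CPM. The mean was 75.4% of WT (log2 fold change -0.41, SE 0.12, 95% interval -0.67 to -0.15, edgeR adjusted p = 0.0235). This call was lost when WT replicate 1 or 2 or METTL3-KO replicate 1 or 2 was left out, with log2 fold changes of -0.27 to -0.39. SNHG6 lies at chr8:67832796-67838633 on the minus strand of GRCh37 and has 3 exons in its canonical transcript.

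GAS5, a growth arrest associated host with 12 exons and many intronic snoRNAs, was measured at 208.6, 228.5 and 170.8 CPM in the WT samples and at 152.5, 166.1 and 179.3 CPM in the METTL3-KO samples. The highest METTL3-KO value exceeded the lowest WT value, and these 2 values were those of replicate 3. The log2 fold change was -0.29 (SE 0.10, 95% interval -0.52 to -0.06) with an edgeR adjusted p of 0.0606. ZFAS1, the host antisense to the start of ZNFX1, was measured at 151.4, 160.3 and 120.7 CPM in WT and at 115.7, 124.9 and 136.3 CPM in METTL3-KO (log2 fold change -0.20, 95% interval -0.43 to 0.03, adjusted p = 0.191). SNHG5, which carries the snoRNAs of the SNORD50 family, was measured at 21.5, 20.97 and 17.1 CPM in WT and at 15.0, 16.8 and 17.6 CPM in METTL3-KO (log2 fold change -0.28, 95% interval -0.51 to -0.04, adjusted p = 0.0860). In each of the 3 RNAs replicate 3 was the lowest WT sample and the highest METTL3-KO sample.

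DANCR, known as an RNA that holds back differentiation, was measured at 60.9, 58.3 and 46.2 CPM in the WT samples and at 52.1, 47.9 and 53.5 CPM in the METTL3-KO samples. Its log2 fold change was -0.11 (SE 0.10, 95% interval -0.33 to 0.12, edgeR adjusted p = 0.479). SNHG8 was measured at 42.7, 45.7 and 33.0 CPM in WT and at 35.7, 38.0 and 44.6 CPM in METTL3-KO. Its log2 fold change was -0.04 (SE 0.12, 95% interval -0.31 to 0.23, adjusted p = 0.839), and it took the opposite sign without WT replicate 2 (0.063) or METTL3-KO replicate 1 (0.032). These intervals include changes as large as that of GAS5, so a fall of that size in DANCR or SNHG8 was not excluded by these samples.

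The hosts moved together in replicate 3. Relative to the other samples of their group, WT replicate 3 was lower in all 7 hosts, by 0.14 (SNHG1) to 0.43 (SNHG6) on the log2 scale, and METTL3-KO replicate 3 was higher in all 7, by 0.09 (SNHG1) to 0.28 (SNHG8). MALAT1, NEAT1 and CCAT1 went the other way, by 0.11, 0.23 and 0.58 up in WT replicate 3 and by 0.12, 0.09 and 0.25 down in METTL3-KO replicate 3. Without replicate 3 of both groups all 10 RNAs were called lower, in a fit that called 22.7% of all tested genes lower and 21.4% higher. Among genes with a mean of at least 3 on the log2 CPM scale it called 35.4% lower and 32.1% higher. This fit held only replicates 1 and 2 of each group, which were close. Their chi-square per gene was 2.44 in WT and 2.23 in METTL3-KO. Pairs with replicate 3 gave 20.7 and 20.8 in WT and 7.61 and 10.1 in METTL3-KO. The p-values of this fit therefore measure a small spread, which may be technical. The log2 fold changes were then -0.46 for GAS5, -0.43 for SNHG5, -0.38 for ZFAS1, -0.27 for SNHG8 and -0.25 for DANCR. SNHG1 stood at -0.49 and SNHG6 at -0.59. NEAT1 and MALAT1 kept most of their change, at -1.07 and -0.64. Leaving out WT replicate 3 alone was enough for GAS5 (-0.40), SNHG5 (-0.37), ZFAS1 (-0.31) and DANCR (-0.22) to pass, which made 9 lower RNAs. That fit called 3793 of 21923 tested genes lower and 3809 higher.

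**Figure D3:**
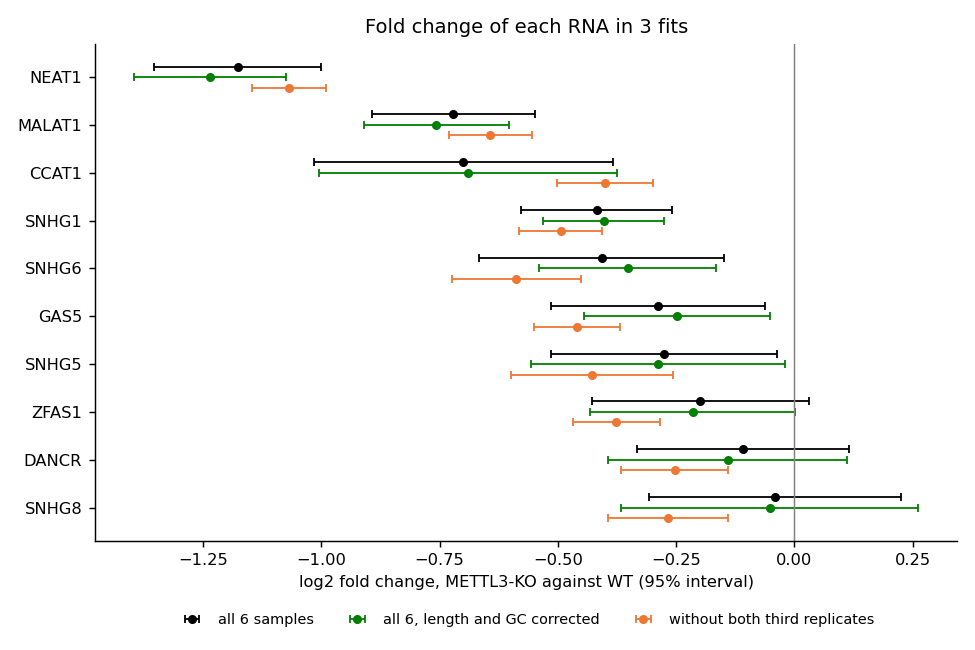
log2 fold change of METTL3-KO against WT (horizontal axis, points) with its 95% interval (bars) for each of the 10 lncRNAs in 3 fits: all 6 samples (black), all 6 samples corrected for transcript length and GC content (green) and the 4 samples without replicate 3 of either group (orange). NEAT1 lay between -1.23 and -1.07 in the 3 fits, the 7 hosts shifted away from 0 without replicate 3, and CCAT1 shifted towards 0.

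After each sample was corrected for transcript length and GC content, the same 5 RNAs were called lower, where 16.7% of all tested genes were. Of the 10378 genes with a mean of at least 3 on the log2 CPM scale, 2859 were called lower. The corrected log2 fold changes were -1.23 for NEAT1, -0.76 for MALAT1, -0.40 for SNHG1 and -0.35 for SNHG6. GAS5 stood at -0.25 with an adjusted p of 0.0504, and its adjusted p ran from 1.41e-12 to 0.261 over the alternatives. The smallest of these came from the fit without replicate 3 of both groups. SNHG8, DANCR, ZFAS1 and SNHG5 were again not called. The SE rose with the correction for SNHG8 (0.122 to 0.145), SNHG5 (0.109 to 0.124) and DANCR (0.103 to 0.116), and fell for the other hosts. Where the SE rose, the correction did not reduce the spread between samples, so the missing call is no check on replicate 3. The length of SNHG5 is 5764 nt by its longest transcript and 1316 nt by its canonical one. A correction with another choice of length was not tested. CCAT1 has no entry in the annotation used and was given no correction of its own.

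CCAT1 fell to 61.6% of WT. It was measured at 88.9, 95.7 and 137.9 CPM in the WT samples and at 72.0, 67.7 and 58.6 CPM in the METTL3-KO samples, without overlap. The log2 fold change was -0.70 (SE 0.14, 95% interval -1.02 to -0.38, edgeR adjusted p = 0.00354). WT replicate 3 stood far above the other WT samples, and without replicate 3 of both groups the log2 fold change was -0.40. Of 9 tested genes of the MYC locus list, PVT1 and CASC19 were lower, FAM84B was higher and 6 did not pass. Among genes of at least 3 in mean log2 CPM, 20.7% were called lower and 20.2% higher. Without replicate 3 of both groups these shares were 35.4% and 32.1%. PVT1, the lncRNA downstream of MYC, was measured at 101.7, 98.9 and 96.2 CPM in WT and at 53.6, 52.2 and 57.1 CPM in METTL3-KO (log2 fold change -0.87, edgeR adjusted p = 8.25e-06). CASC19 had a log2 fold change of -0.84 with a raised value in WT replicate 3 (26.8 CPM against 16.8 and 16.5 CPM), and FAM84B one of 0.50. Without replicate 3 of both groups CASC19 stood at -0.47, FAM84B at 0.58 and PVT1 at -0.92. MYC itself was measured at 182.2 CPM ± 8.72 (SD, n = 3) in WT and 161.5 CPM ± 7.44 in METTL3-KO and did not pass (log2 fold change -0.17, adjusted p = 0.0990). It did pass, at -0.23, when replicate 3 of both groups was left out.

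Levels can be compared between these genes only per length of transcript. Per kilobase of the longest annotated transcript, GAS5 stood highest in WT at 64.4 CPM per kb, followed by SNHG1 (42.1), ZFAS1 (31.8), MALAT1 (28.3), SNHG6 (22.2), NEAT1 (19.6), DANCR (9.09), SNHG8 (6.57) and SNHG5 (3.44), as means of 3 samples. By this length the order of the 9 RNAs was the same in METTL3-KO, from 52.8 CPM per kb for GAS5 to 2.86 for SNHG5. NEAT1 fell to 8.66 CPM per kb, close to DANCR at 8.43. The length used for NEAT1 is that of its long isoform, so its level per kb is too low where counts came from the short one. In WT the ranges of ZFAS1 and MALAT1, of MALAT1 and SNHG6, and of SNHG6 and NEAT1 overlapped, so the order of these neighbours is not set by the samples. The order also rests on the transcript chosen for length. With the canonical transcript GAS5 stood at 263.9 CPM per kb in WT, and with all annotated exons joined NEAT1 ranked above ZFAS1 in WT. By these lengths the order was not the same in METTL3-KO. NEAT1 went from place 6 in WT to 8 with the canonical transcript, and from 4 to 6 with all exons joined. CCAT1 had no annotated length and was left out.

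Several of these genes share a start region with a protein-coding neighbour on the other strand, and the neighbours did not all follow them. The library kit does not mark strand, and the strand setting of the count is not given in the sources used here, so reads of overlapping genes on opposite strands cannot be told apart where the annotation of the count did not leave them out. SLC3A2, the heavy chain of amino acid transporters, starts 51 nt from SNHG1 on the opposite strand and was lower as well, from 237.0 to 180.4 CPM on average (log2 fold change -0.39, edgeR adjusted p = 0.00317). ZNFX1 starts 248 nt from ZFAS1 on the opposite strand and overlaps it over 249 nt. It was higher in METTL3-KO, with a log2 fold change of 0.62 and an adjusted p of 1.25e-04, while ZFAS1 was measured at -0.20. ZBTB37, which overlaps the start of GAS5 over 801 nt, did not pass, at 0.07. It was measured at 21.8, 20.6 and 31.4 CPM in WT and at 27.4, 27.6 and 21.9 CPM in METTL3-KO. Replicate 3 was thus its highest WT sample and its lowest METTL3-KO sample, and the value of 0.07 rests on it. PRSS12, which overlaps SNHG8 over 5279 nt on the other strand, did not pass either (0.33, adjusted p = 0.0749), and nor did MCMDC2 beside SNHG6 (0.07) or ERVMER34-1 beside DANCR (-0.45). MALAT1 is overlapped over 8121 nt by the antisense transcript TALAM1, which was not analysed here.

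The snoRNAs inside the hosts could hardly be measured. Of 26 listed snoRNA genes 19 had a row in the count tables, 4 had enough counts to be tested and none was called. Leaving out replicate 3 of both groups, 1 of them, SNORD12B, was called higher on few counts (log2 fold change 1.09). Whether mature snoRNAs followed their hosts was not measurable at this depth in libraries of this kind.

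Other snoRNA hosts outside the 10 gave a similar mixture. Of 10 tested, 3 were lower, none was higher, and the median log2 fold change was -0.16. SNHG15 was measured at 47.8, 48.1 and 42.4 CPM in WT and at 32.2, 33.4 and 32.9 CPM in METTL3-KO (log2 fold change -0.49, edgeR adjusted p = 7.70e-04), and SNHG17 had a log2 fold change of -0.45. SNHG9, the other one that was lower, rested on 10 to 30 counts per sample. SNHG3, SNHG7 and SNHG12 overlapped between groups, with WT means of 84.1, 53.6 and 25.9 CPM and METTL3-KO means of 88.2, 53.5 and 29.0 CPM. Without replicate 3 of both groups 7 of the 10 were lower, among them SNHG7 (log2 fold change -0.20). SNHG3 (-0.11) and SNHG12 (-0.09) did not pass, and all 10 were then negative with a median of -0.31. Without WT replicate 3 alone 5 were lower. Of genes with at least 3 in mean log2 CPM, 20.7% were called lower in all 6 samples and 35.4% without replicate 3 of both groups.

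Among 31 other known lncRNAs, 8 were lower, 3 were higher and 20 did not pass, with a median of -0.07. PVT1 and CASC19 are counted in this list too. Of the 137 lncRNAs of at least 3 in mean log2 CPM, 19.7% were called lower and 15.3% higher. Without replicate 3 of both groups 35.4% of all genes of that level were called lower and 32.1% higher. The 3 higher ones were UCA1, a lncRNA first described in bladder cancer, at 8.65 CPM ± 0.900 (SD, n = 3) in WT and 17.7 CPM ± 2.97 in METTL3-KO, MIR22HG, the host of miR-22, at 11.2 CPM ± 0.915 and 21.9 CPM ± 0.817, and LINC00657. The last, also called NORAD, binds PUMILIO proteins and is a long cytoplasmic RNA. It was measured at 613.1, 629.5 and 733.5 CPM in WT and at 873.3, 869.7 and 769.2 CPM in METTL3-KO (log2 fold change 0.35, edgeR adjusted p = 0.00998). Without replicate 3 of both groups its log2 fold change was 0.49. With replicate 3 of both groups left out 9 of the 30 then tested were lower and 6 higher, with TUG1, OIP5-AS1 and KCNQ1OT1 added to the higher ones. The number higher was 5 without WT replicate 3 alone, 6 after the correction for length and GC content and 2 in the fit with a replicate block. Lower levels were thus not shared by every abundant lncRNA of these cells.

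**Figure D4:**
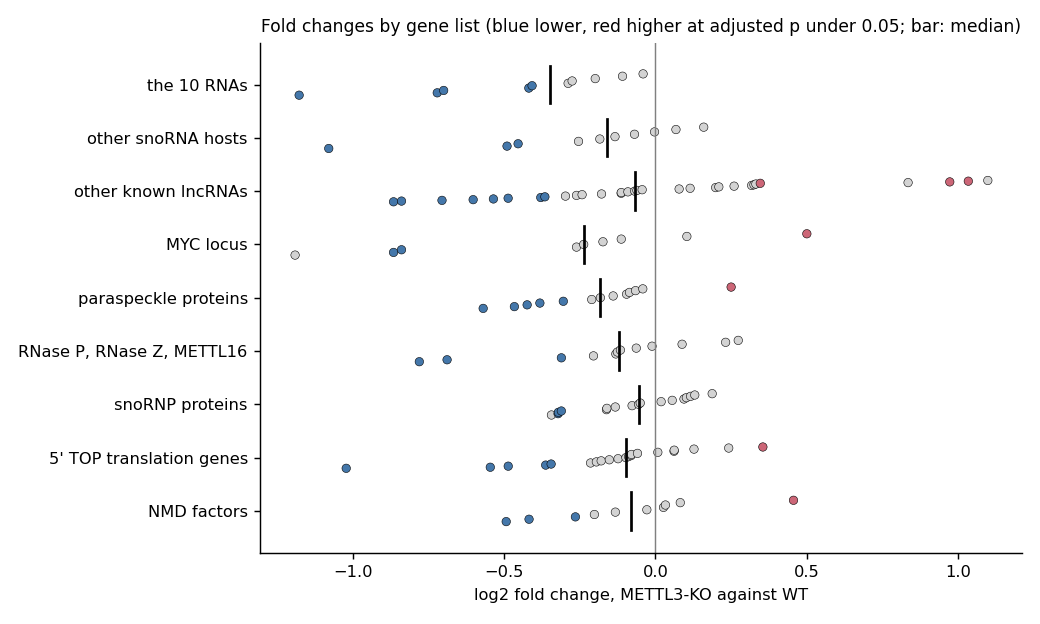
log2 fold change of METTL3-KO against WT (horizontal axis) of each tested gene (points) in the 10 lncRNAs and 8 related gene lists (rows), with blue for genes called lower, red for genes called higher, grey for genes that did not pass, and a black bar for the median of the list. The 10 lncRNAs all lie left of 0 with a median of -0.35, and the medians of the other lists lie between -0.24 and -0.06.

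Genes that act on host RNAs and their snoRNAs, or share the TOP motif with hosts, were counted against the 26.5% of all tested genes called in either direction. Among genes of at least 3 in mean log2 CPM, 20.7% were called lower and 20.2% higher in all 6 samples. Without replicate 3 of both groups these shares were 35.4% and 32.1%. Of 17 proteins that bind or assemble snoRNAs 3 were lower and none was higher, with a median of -0.06. They were NOP56 (log2 fold change -0.32) and the methyltransferase FBL (-0.32) of box C/D particles and NHP2 (-0.31) of box H/ACA particles, with edgeR adjusted p-values of 0.0154, 0.0282 and 0.0242. None of the 17 was lower when WT replicate 1 or 2 or METTL3-KO replicate 1 or 2 was left out, 5 were lower without WT replicate 3 and 6 without replicate 3 of both groups, when DKC1 was higher (0.16). Of 10 factors of nonsense-mediated decay, 3 were lower (UPF3B at -0.49, UPF3A at -0.42 and SMG6 at -0.26) and 1, UPF2, was higher at 0.46. In the 4 samples without replicate 3 SMG9 was also lower and SMG1 was also higher, and the list then held 4 lower and 3 higher genes. Without WT replicate 3 alone 2 were higher. Of 21 translation genes known for a TOP motif, 5 were lower and 1 was higher, with a median of -0.10. The largest fall was that of NACA, a subunit of the nascent polypeptide associated complex, at 957.8, 958.4 and 774.4 CPM in WT and 426.9, 436.1 and 462.3 CPM in METTL3-KO (log2 fold change -1.02, adjusted p = 9.70e-06). EIF3L, EEF1B2, HNRNPA1 and GNB2L1 followed at -0.55, -0.49, -0.36 and -0.34, and EIF3F was the one that was higher, at 0.35. No gene of this list was higher without METTL3-KO replicate 3 or with the replicate number as a block, and 3 were without WT replicate 3. NACA, EEF1B2 and HNRNPA1 have near-identical copies elsewhere in the genome, and reads that also aligned to a copy were left out by the counting. Without replicate 3 of both groups 16 of the 21 were lower and 3 higher, and without WT replicate 3 alone 10 were lower.

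As a description over the 6 samples, the genes with the most similar profile of log2 CPM were found for each RNA by Pearson's r among 12904 genes. All 6 samples enter each r, and the difference between the groups and the departure of replicate 3 are shared by its points. NEAT1 was closest to VAPB (r = 1.00) and ERMP1 (r = 0.999), MALAT1 to TMEM30B (0.999) and TMEM64 (0.998), and SNHG1 to TGIF2 (0.999) and GNAS (0.999). The profile of CCAT1 was closest to those of GOSR1 and FAM73A, both at 0.999. SNHG8 was closest to NSA2 (0.998), a factor of ribosome assembly, and to another host, SNHG7 (0.993), and DANCR to RPP25 (0.998), a protein of RNase P and RNase MRP. GAS5 was closest to HINFP and DNAJB2, SNHG5 to NRG4 and NENF, SNHG6 to SERHL2 and ROMO1, and ZFAS1 to PRDX5 and SDF2.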

How the data were processed

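RNA-seq read counts of 3 WT and 3 METTL3-KO samples of HCT116 cells were used. The authors mapped paired reads to hg19 with TopHat2 2.0.11 and counted read pairs per Ensembl GRCh37 gene with htseq-count, and the deposited values are raw counts without normalization for 56638 symbols per sample. Read pairs that fell on more than 1 gene (9.22 to 10.3%) had been left out by the counting. So had alignments to more than 1 place in the genome, 13.7 to 14.7% in WT and 13.4 to 13.5% in METTL3-KO. This bears on genes with near-identical copies. Intervals cover the spread between samples.

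As in the study, a gene was dropped when its counts summed to less than 5 in WT and also in METTL3-KO, and 22452 genes stayed. METTL3-KO was compared with WT by edgeR's quasi-likelihood test (edgeR 4.0.16, R 4.3.3) with TMM normalization, two-sided, with Benjamini-Hochberg adjustment over all tested genes and a threshold of 0.05. CPM values use TMM-scaled library sizes. The standard error is the log2 fold change divided by the square root of F, without its sign. Percentages of WT were taken from the fitted fold change. Positions and transcript lengths came from GENCODE v44 mapped to GRCh37, which is not the annotation the authors counted with. It matched 35694 symbols and 9 of the 10 RNAs. RefSeq starts were used for the sequences.

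The 10 RNAs and the gene lists were chosen with earlier results of these data known. Named genes are the 10 RNAs, METTL3, up to 3 genes per list with the largest change among those called and not below 1 in mean log2 CPM, the genes that overlap or neighbour each RNA, and the 2 genes with the most similar profile. Other list genes were named for their known role or as members of counts, after their values were seen. Some genes that the rule names are not reported here. Alternatives were DESeq2 1.42.0, RLE normalization, other count filters, the replicate number as a block, a correction by splines (5 degrees of freedom) for transcript length and GC content, and leaving out samples. Scaling by total counts and the canonical transcript were added after the data were seen. The procedures were tested on simulated data.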

Additional observations from a re-analysis of the deposited data

How the results depend on the processing

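Over 15 alternatives MALAT1, NEAT1, SNHG1 and CCAT1 were called lower in each, SNHG6 in 10 and GAS5 in 4. Leaving out replicate 3 of both groups raised the genes called to 4823 lower and 4555 higher and the RNAs called to 10, with GAS5 at -0.46, SNHG5 at -0.43, SNHG8 at -0.27, DANCR at -0.25 and ZFAS1 at -0.38. The cause was not tested. With a single sample left out the number of RNAs called ran from 4 to 9, and the log2 fold changes ran from -0.40 to -0.18 for GAS5, -0.37 to -0.21 for SNHG5, -0.53 to -0.27 for SNHG6, -0.16 to 0.063 for SNHG8, which was also reversed at 0.032, -0.22 to -0.030 for DANCR and -0.31 to -0.11 for ZFAS1. The genes called ran from 1976 to 3793 lower and from 2188 to 3809 higher. GAS5 passed with no filter beyond 1 count (-0.28) and with total counts as the only scaling (-0.29), an alternative chosen after seeing the data.

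Replicate numbers did not pair the samples: the correlations of deviations were -0.59, -0.40 and -0.79 for equal numbers. With the replicate number as a block 1719 genes were called lower and 1810 higher, and 4 RNAs, with SNHG6 at -0.39 not called.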

Other observations

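The cytosolic ribosomal protein genes, whose mRNAs carry the TOP motif like several snoRNA hosts, were looked at as a list chosen by symbol after the data were seen. Of 83 tested, 21 were lower, 2 were higher and 60 did not pass, with a median log2 fold change of -0.27, and 76 had a negative value. Over all tested genes 13.2% were called lower, and 20.7% of those at 3 or more in mean log2 CPM. Once samples were corrected for length and GC content 48 were lower and 3 higher, with a median of -0.25. That fit called lower 16.7% of all tested genes and 2859 of the 10378 genes at that level. Without replicate 3 of both groups 71 were lower and none was higher, with a median of -0.46, where 22.7% of all tested genes and 35.4% of those at that level were lower. The median of the 7 snoRNA hosts among the 10 RNAs was then -0.43.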
